A study of Mus musculus with 24 samples.

Results

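The radial glia and astrocyte markers examined here were 10 genes, Nes, Vim, Fabp7, Slc1a3, Gfap, Hopx, Tnc, Ptprz1, Aldh1l1 and Gja1, taken from the 14922 genes of a table of RNA levels in mouse neural stem cells (NSCs). They were matched by symbol, from a list set with earlier results of these data known, and all 10 were in the table. The levels and the line-to-line spread of these genes were compared over 4 groups of NSC lines that differ in mouse strain and in the Smchd1 allele they carry.

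NSCs are cells that divide and stay undifferentiated in adherent culture, and these came from cortices of E14.5 embryos and were used at under 10 passages. Smchd1 encodes a chromatin protein that silences genes, and MommeD43 is a point mutation in it. In the group FVB_WT the cells were Smchd1+/+ on FVB/NJ, and in FVB_MD43 they were Smchd1 MommeD43/MommeD43 on FVB/NJ with the allele made by the chemical mutagen ENU. In B6GFP_MD43 the cells were C57BL/6J and, by the study's description, homozygous for the mutation introduced by CRISPR/Cas9 into an Smchd1-GFP fusion gene, and in B6GFP_WT they were C57BL/6J cells with the fusion and without the mutation. The labels of B6GFP_WT give the genotype as Smchd1+/+, and the study describes these controls as homozygous for the fusion. Strain and fusion therefore cannot be told apart, and every contrast of B6GFP with FVB is a contrast of both. Where MommeD43 cells enter such a contrast, the ENU allele is also set against the CRISPR/Cas9 allele. All lines were labelled female. Of the 24 columns, 2 carried in each gene the average of the remaining columns of their group (largest gap 8e-09), and both were left out: the third FVB_MD43 and the second B6GFP_MD43 replicate as sequenced in batch 1. The 22 libraries used came from 17 lines, with 6 libraries of 5 lines in FVB_WT, 5 of 4 lines in FVB_MD43, 6 of 4 lines in B6GFP_WT and 5 of 4 lines in B6GFP_MD43. Batch 1 held both strains, batch 2 held FVB and batch 3 held B6GFP. Levels are log2 CPM, the log2 of reads scaled to a common library total, after the authors' adjustment for batch, and a line with several libraries was entered as their mean.

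Whole reads could be recovered from the values of 14918 genes (99.97%), which put the depth at 31176437 to 52925842 reads per library for batch 1 and 25764922 to 59187381 for batch 3, while batch 2 was shallower at 8080178 to 11215898. The fit weighted the libraries by quality, from 0.101 to 4.9, and the lowest weights were those of B6GFP_WT replicate 4 (line 49.1) at 0.101 and of B6GFP_MD43 replicate 2 (line 37.2) at 0.158, both in batch 3. The mutated gene Smchd1 (Entrez 74355) was at 7.27 ± 0.12 (SD, n = 5 lines) log2 CPM in FVB_WT, 7.36 ± 0.07 (n = 4) in FVB_MD43, 6.96 ± 0.28 (n = 4) in B6GFP_WT and 7.16 ± 0.19 (n = 4) in B6GFP_MD43. A point mutation need not alter the RNA level, so this level does not check the labels.

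Radial glia are the stem cells that line the ventricles of the embryonic brain. Their long fibres guide young neurons, and late in gestation many of them turn into astrocytes. Cultured NSCs keep much of the radial glial gene set. Nes, Vim and Fabp7 are typical of radial glia, Slc1a3, Hopx, Tnc and Ptprz1 of radial glia that persist towards gliogenesis as well as of astrocytes, and Gfap, Aldh1l1 and Gja1 rise as astrocytes mature. Astrocyte genes are switched on through cytokine receptors that act on JAK kinases and STAT3, through BMP signals and through the nuclear factor I (NFI) proteins, and SOX proteins hold the progenitor state.

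The sequences just upstream of the genes were taken from RefSeq (build GRCm38.p6), which matched all 10 genes with 12 windows, since Hopx and Tnc each have 2 starts. Each window runs from 250 to 51 bases before the annotated start it was cut from. For Aldh1l1 and Ptprz1 that start lies inside the gene span given below and not at its edge. Shown are those of Nes, which was higher in B6GFP lines, and of Slc1a3, Gfap and Aldh1l1, which were lower there in both genotypes. The windows lie at chr3:87970843-87971042 on the plus strand for Nes, chr15:8710858-8711057 on the minus strand for Slc1a3, chr11:102897251-102897450 on the minus strand for Gfap and chr6:90550543-90550742 on the plus strand for Aldh1l1. Capitals mark a match to the STAT motif TTCCNNGAA on either strand.
Nes: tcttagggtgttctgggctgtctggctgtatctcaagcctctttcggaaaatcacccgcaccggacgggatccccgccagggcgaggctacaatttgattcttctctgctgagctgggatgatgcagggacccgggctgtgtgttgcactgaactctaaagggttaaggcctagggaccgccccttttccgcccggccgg
Slc1a3: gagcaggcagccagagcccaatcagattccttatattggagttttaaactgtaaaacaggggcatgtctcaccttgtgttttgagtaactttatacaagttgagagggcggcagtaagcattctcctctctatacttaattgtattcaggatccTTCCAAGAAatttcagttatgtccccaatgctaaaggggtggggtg
Gfap: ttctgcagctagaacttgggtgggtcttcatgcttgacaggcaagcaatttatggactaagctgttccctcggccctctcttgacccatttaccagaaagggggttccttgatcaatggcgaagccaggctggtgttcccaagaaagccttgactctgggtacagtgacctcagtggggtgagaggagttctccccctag
Aldh1l1: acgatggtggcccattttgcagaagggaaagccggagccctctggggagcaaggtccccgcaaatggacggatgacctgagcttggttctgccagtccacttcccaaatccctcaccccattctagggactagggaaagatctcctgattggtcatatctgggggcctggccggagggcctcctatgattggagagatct
The STAT motif was found in 1 of the 12 windows, that of Slc1a3, 96 bases before the start, beside 3.28% of the 32851 mouse windows of the same length. The NFI half-site TTGGCA was in 0 of the 12 windows and in 10.2% of all windows, and the SOX motif ACAAAG was in 0 of the 12 and in 13.6% of all. Both strands were searched, none of the motifs contains another, and a match describes letters and not a bound site.

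Per kb of merged exon, the 10 genes spanned a wide range of batch-adjusted levels. Fabp7, a fatty acid binding protein of radial glia, was the highest, with a mean over the 4 groups of 10.24 log2 CPM per kb and group means of 10.03 to 10.41. The intermediate filament gene Vim followed at 8.88, then Tnc, a matrix glycoprotein, at 7.75 and Nes, the nestin filament gene, at 7.48. Group means of Tnc (7.67 to 7.79) and Nes (7.14 to 7.81) overlapped. Slc1a3, the glutamate transporter GLAST, stood at 6.67 and Ptprz1, a receptor-type phosphatase that binds pleiotrophin, at 6.27, again with overlapping ranges of group means (6.19 to 7.01 and 6.02 to 6.41). A step lower were the folate enzyme gene Aldh1l1 at 3.86, the connexin 43 gene Gja1 at 3.31 and Hopx, an atypical homeodomain gene of outer radial glia, at 3.17, which overlapped one another. Gfap, the filament gene of mature astrocytes, was far below the rest at -2.49 log2 CPM per kb, with group means of -3.91 to -1.58. Per kb, Fabp7, Vim, Tnc and Nes were thus above the astrocyte genes Aldh1l1, Gja1 and Gfap in all 4 groups.

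**Figure D1:**
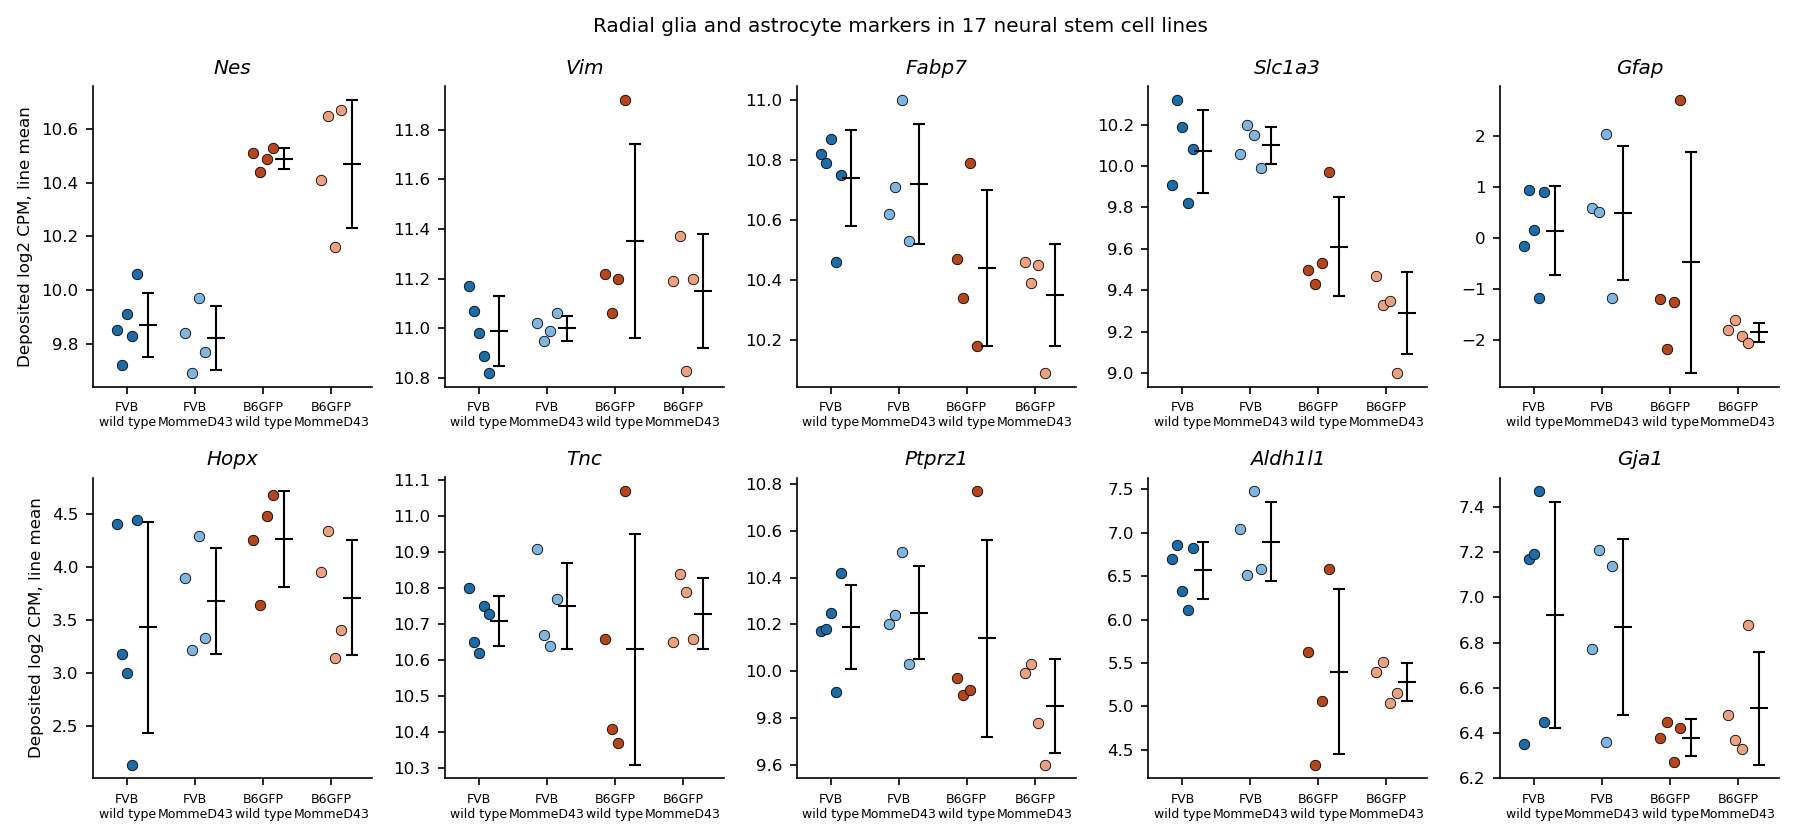
Levels of the 10 marker genes in log2 CPM (vertical axis, batch-adjusted as deposited) for each of the 17 lines in the 4 groups, with 1 point per line and the group mean and SD over lines. Nes was higher in every B6GFP line than in every FVB line, and line 49.1 of B6GFP_WT was the highest of all for Gfap at 2.72.

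The first comparison asks how the markers differ between B6GFP and FVB lines of the same Smchd1 genotype. In wild-type cells, 8 of the 10 genes passed the limma test at an adjusted p of 0.05: Nes, Vim and Hopx were higher in B6GFP, and Fabp7, Slc1a3, Gfap, Aldh1l1 and Gja1 were lower. Over all genes 41.1% passed, with 17.9% higher and 23.2% lower in B6GFP, so most of the markers and a large share of all genes differed between the strains. In MommeD43 cells, 7 of the 10 passed, Nes and Vim higher and Slc1a3, Gfap, Ptprz1, Aldh1l1 and Gja1 lower, beside 34.4% of all genes (14.7% higher and 19.6% lower). The median difference of the 10 genes was -0.22 log2 in wild type and -0.29 in MommeD43, against -0.02 and -0.03 over all genes. Since batches 2 and 3 each hold 1 strain, the strains were side by side in batch 1 alone, with 5 libraries each. There, 8 of the 10 genes passed in wild type and 5 in MommeD43, beside 5095 and 3596 of the 14922 genes. Without quality weights 2 of the 10 passed in wild type (Nes and Aldh1l1) and 3 in MommeD43 (Nes, Slc1a3 and Aldh1l1), with 1259 and 1017 genes passing in all against 6131 and 5126.

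Line means did not overlap between the strains for 1 of the 10 genes in wild type (Nes), where 15.9% of all genes did not overlap, and for 6 in MommeD43, where 21.3% did not. Those 6 were Nes, above in B6GFP, and Fabp7, Slc1a3, Gfap, Ptprz1 and Aldh1l1, below, where the order of the Gfap lines rests on a library with 0 reads. Between the 5 libraries of each strain in batch 1, 6 of the 10 genes did not overlap, Nes and Vim above in B6GFP and Fabp7, Slc1a3, Gfap and Aldh1l1 below, against 26.3% of all genes.

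**Figure D2:**
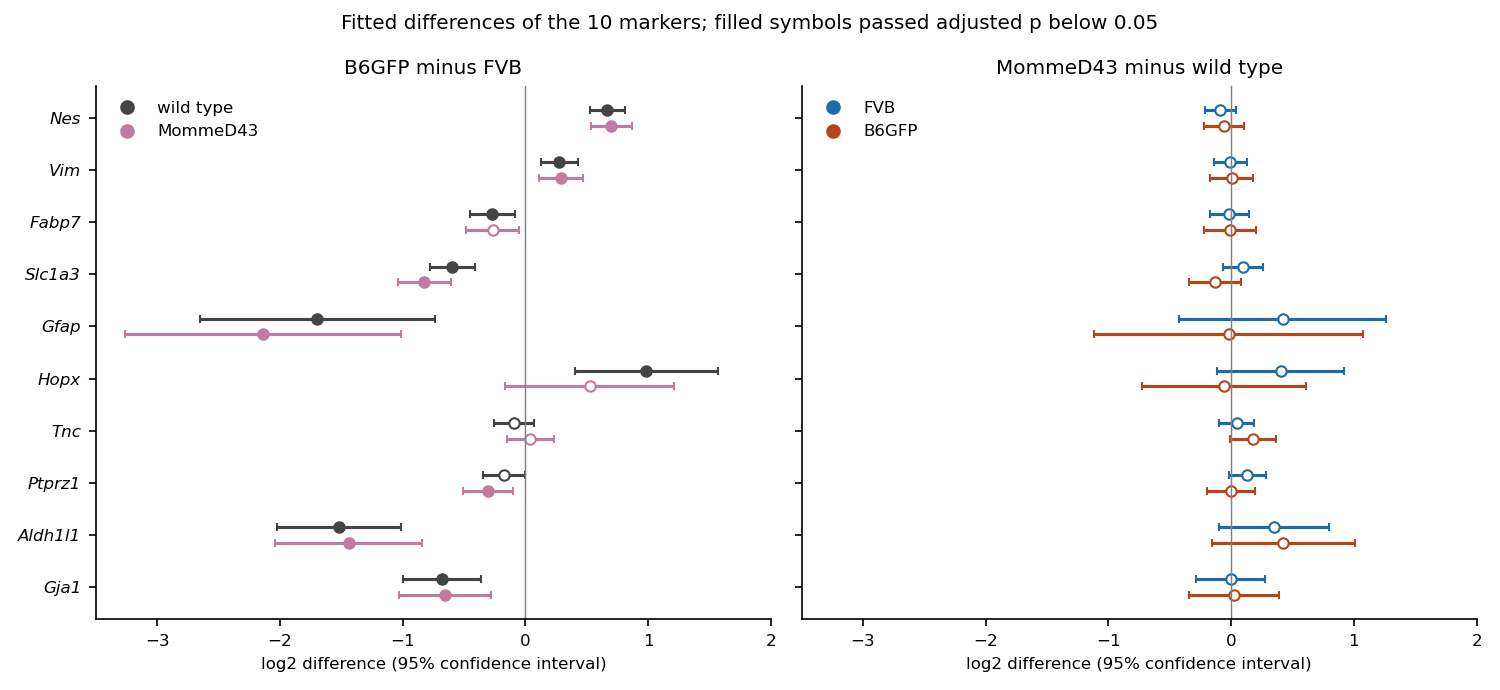
Fitted log2 differences of the 10 genes (horizontal axis) with 95% intervals, for B6GFP against FVB in wild type and in MommeD43 and for MommeD43 against wild type in each strain. The strain differences run from -2.14 (Gfap) to 0.99 (Hopx), and every interval of a MommeD43 difference includes 0.

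Among the filament genes, Nes (Entrez 18008, chromosome 3, 87971093 to 87980451 on the plus strand of GRCm38.p6) was the clearest difference. The FVB_WT lines were at 9.85, 9.72, 9.91, 9.83 and 10.06 log2 CPM and the FVB_MD43 lines at 9.84, 9.69, 9.97 and 9.77. The B6GFP_WT lines were at 10.51, 10.44, 10.49 and 10.53 and the B6GFP_MD43 lines at 10.41, 10.65, 10.16 and 10.67. The highest FVB line lay below the lowest B6GFP line. Nes was 1.59-fold higher in B6GFP in wild type (0.67 log2, SE 0.07, limma adjusted p = 1.62e-07) and 1.62-fold higher in MommeD43 (0.70, SE 0.08, adjusted p = 1.23e-06). In RPM, the recovered reads scaled to each library's own total before any batch adjustment, Nes in batch 1 was 1040, 1020 and 1080 in FVB_WT, 1030 and 942 in FVB_MD43, 1640, 1740 and 1560 in B6GFP_WT and 1520 and 1640 in B6GFP_MD43. In batch 3 the B6GFP libraries held 827 to 1290 RPM of Nes and in batch 2 the FVB libraries held 908 to 1220, so the separation was present in batch 1 and these separate batches overlapped.

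Vim (Entrez 22352, chromosome 2, 13574311 to 13582826, plus strand), the vimentin gene, differed less. It was at 10.99 ± 0.14 (SD, n = 5 lines) log2 CPM in FVB_WT, 11 ± 0.05 (n = 4) in FVB_MD43, 11.35 ± 0.39 (n = 4) in B6GFP_WT and 11.15 ± 0.23 (n = 4) in B6GFP_MD43. The B6GFP_WT lines spread from 11.06 to 11.92, the highest being line 49.1, and the strains overlapped. The fitted difference was 0.28 (SE 0.07, adjusted p = 0.00469) in wild type and 0.29 (SE 0.09, adjusted p = 0.0131) in MommeD43, and without quality weights neither passed (adjusted p = 0.256 and 0.629). In batch 1, the 5 FVB libraries held 1490 to 1800 RPM of Vim and the 5 B6GFP libraries 1830 to 2000.

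Gfap (Entrez 14580, chromosome 11, 102887336 to 102897200, minus strand) was the scarcest of the 10. The FVB_WT lines were at -0.14, 0.95, 0.17, -1.16 and 0.92 log2 CPM and the FVB_MD43 lines at 0.60, 0.51, 2.04 and -1.16. The B6GFP_WT lines were at -1.18, -2.17, -1.25 and 2.72 and the B6GFP_MD43 lines at -1.80, -1.59, -1.92 and -2.04. In the adjusted values all B6GFP_MD43 lines lay below all FVB lines, but the lowest FVB lines, 15 and 42, held 0 Gfap reads, so that this order was not measured. In B6GFP_WT line 49.1 stood above every other line. The fitted difference between strains was -1.70 (SE 0.46, adjusted p = 0.00561) in wild type and -2.14 (SE 0.54, adjusted p = 0.00426) in MommeD43, that is 3.24-fold and 4.4-fold lower in B6GFP. Without quality weights the wild-type difference was -0.82 (adjusted p = 0.687) and that in MommeD43 -2.15 (adjusted p = 0.272), and the wild-type call was also lost without B6GFP_WT replicate 2 (-0.94, adjusted p = 0.186). The unweighted group means, -0.47 ± 2.17 (SD, n = 4 lines) in B6GFP_WT and 0.15 ± 0.87 (n = 5) in FVB_WT, lay closer together than the fitted values, and line 49.1 has a weight of 0.101 in the fit.

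The reads behind Gfap were few and depended on the batch. In batch 1, FVB_WT libraries held 4.78, 6.73 and 5.95 RPM and FVB_MD43 libraries 8.05 and 9.79, against 2.31, 1.0 and 3.95 in B6GFP_WT and 1.47 and 3.71 in B6GFP_MD43. Every FVB library was above every B6GFP library there, on 40 to 518 reads each. In batch 2 the FVB libraries held 0 to 5 reads in all, and the 2 with 0 reads allow up to 0.307 and 0.37 RPM at a limit of 3 reads. In batch 3 the B6GFP libraries held 7 to 27 reads apart from line 49.1, which held 833 reads or 14.1 RPM. The deposited -1.16 log2 CPM in lines 15 and 42 stands for 0 reads. These counts cover counting error alone, and the Gfap levels of batch 2 rest on so few reads that differences among its lines were not detectable at this depth.

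Of the metabolic genes, Aldh1l1 (Entrez 107747, chromosome 6, 90550768 to 90599171, plus strand), which oxidises formyl-tetrahydrofolate and is a pan-astrocyte marker, had the largest difference after Gfap. The FVB_WT lines were at 6.70, 6.86, 6.33, 6.11 and 6.82 log2 CPM and the FVB_MD43 lines at 7.04, 6.51, 7.48 and 6.58. The B6GFP_WT lines were at 5.63, 4.33, 5.06 and 6.58 and the B6GFP_MD43 lines at 5.40, 5.51, 5.04 and 5.16. Line 49.1 at 6.58 was the B6GFP line that reached the FVB range. The difference was -1.52 (SE 0.24, adjusted p = 4.93e-05) in wild type and -1.44 (SE 0.29, adjusted p = 0.000601) in MommeD43, or 2.87-fold and 2.71-fold lower in B6GFP. In batch 1 the FVB libraries held 131 to 214 RPM and the B6GFP libraries 32.0 to 80.6. Nes and Aldh1l1 passed in both genotypes under all 32 alternatives.

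Fabp7 (Entrez 12140, chromosome 10, 57784923 to 57788450, plus strand) was at 10.74 ± 0.16 (SD, n = 5 lines) log2 CPM in FVB_WT, 10.72 ± 0.20 (n = 4) in FVB_MD43, 10.44 ± 0.26 (n = 4) in B6GFP_WT and 10.35 ± 0.17 (n = 4) in B6GFP_MD43. It was lower in B6GFP by 0.27 on the log2 scale in both genotypes, which passed in wild type (-0.27, SE 0.09, adjusted p = 0.0184) and missed in MommeD43 (adjusted p = 0.0508). Of the 32 alternatives, 6 lost the wild-type call, among them no quality weights (adjusted p = 0.405), libraries centred on their median (adjusted p = 0.0807) and leaving out FVB_WT replicate 3 (adjusted p = 0.0859) or B6GFP_WT replicate 2 (adjusted p = 0.102). In MommeD43, 15 of the 32 gained a call, such as line means (adjusted p = 0.0341), so both calls lie near the threshold. In batch 1 the FVB libraries held 2050 to 2440 RPM and the B6GFP libraries 1720 to 1850, without overlap.

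The glutamate transporter gene Slc1a3 (Entrez 20512, chromosome 15, 8634124 to 8710807, minus strand) was lower in B6GFP. The FVB_WT lines were at 9.91, 10.32, 10.19, 9.82 and 10.08 log2 CPM and the FVB_MD43 lines at 10.06, 10.20, 10.15 and 9.99. The B6GFP_WT lines were at 9.50, 9.43, 9.53 and 9.97 and the B6GFP_MD43 lines at 9.47, 9.33, 9.35 and 9.0. In these adjusted values the ranges met at line 49.1 in wild type and were apart in MommeD43. The difference was -0.59 (SE 0.09, adjusted p = 2.07e-05) in wild type and -0.82 (SE 0.10, adjusted p = 3.98e-06) in MommeD43, that is 1.51-fold and 1.77-fold lower in B6GFP. Without quality weights the wild-type difference was -0.50 (adjusted p = 0.0535). In batch 1 the FVB libraries held 1460 to 1930 RPM and the B6GFP libraries 892 to 1200.

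Gja1 (Entrez 14609, chromosome 10, 56377300 to 56390419, plus strand) encodes the gap junction protein that couples astrocytes and radial glia. It was at 6.92 ± 0.50 (SD, n = 5 lines) log2 CPM in FVB_WT, 6.87 ± 0.39 (n = 4) in FVB_MD43, 6.38 ± 0.08 (n = 4) in B6GFP_WT and 6.51 ± 0.25 (n = 4) in B6GFP_MD43. The FVB lines spanned a wide range, 6.35 to 7.47, that took in most B6GFP lines. The fitted difference was -0.68 (SE 0.15, adjusted p = 0.0013) in wild type and -0.65 (SE 0.18, adjusted p = 0.0078) in MommeD43. In MommeD43 it did not pass without FVB_MD43 replicate 2 (-0.31, adjusted p = 0.08) or in batch 1 alone (adjusted p = 0.0965), and without quality weights it passed in neither genotype (adjusted p = 0.142 and 0.432). In batch 1, FVB_WT replicate 1 with 72.2 RPM lay within the B6GFP range of 67.8 to 86.0, and the other 4 FVB libraries held 96.4 to 144.

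The matrix gene Tnc (Entrez 21923, chromosome 4, 63959785 to 64047015, minus strand) and its receptor phosphatase Ptprz1 (Entrez 19283, chromosome 6, 22875315 to 23052916, plus strand) differed less between the strains. Tnc was at 10.71 ± 0.07 (SD, n = 5 lines) log2 CPM in FVB_WT, 10.75 ± 0.12 (n = 4) in FVB_MD43, 10.63 ± 0.32 (n = 4) in B6GFP_WT and 10.73 ± 0.10 (n = 4) in B6GFP_MD43, with a fitted difference of -0.09 (95% interval -0.25 to 0.07, adjusted p = 0.359) in wild type and 0.04 (-0.15 to 0.23, adjusted p = 0.768) in MommeD43. Ptprz1 was at 10.19 ± 0.18 (n = 5) in FVB_WT, 10.25 ± 0.20 (n = 4) in FVB_MD43, 10.14 ± 0.42 (n = 4) in B6GFP_WT and 9.85 ± 0.20 (n = 4) in B6GFP_MD43. It passed in MommeD43 (-0.31, SE 0.10, adjusted p = 0.0185) and not in wild type (-0.17, adjusted p = 0.102), and the MommeD43 call was lost in batch 1 alone (adjusted p = 0.0733) and without quality weights (adjusted p = 0.357).

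Hopx (Entrez 74318, chromosome 5, 77086986 to 77115123, minus strand) varied widely from line to line in FVB_WT. The FVB_WT lines were at 4.40, 3.18, 3.0, 2.14 and 4.44 log2 CPM and the FVB_MD43 lines at 3.89, 3.22, 4.29 and 3.33. The B6GFP_WT lines were at 4.25, 3.64, 4.48 and 4.67 and the B6GFP_MD43 lines at 3.95, 4.34, 3.14 and 3.41. All 4 groups overlapped, and the FVB_WT lines fell into a high pair and 3 lower lines. The fitted difference was 0.99 (SE 0.28, adjusted p = 0.00798) in wild type and 0.52 (SE 0.33, adjusted p = 0.232) in MommeD43. The wild-type call was lost without FVB_WT replicate 2 (adjusted p = 0.0754) and without quality weights (adjusted p = 0.329).

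The second comparison asks whether MommeD43 altered the markers within a strain. In FVB, 0 of the 10 genes passed the limma test, beside 0.0737% of all genes (11 genes). In B6GFP 0 of the 10 passed, beside 0% of all genes. In this limma fit none of the 10 had an unadjusted p below 0.05 in either strain, while 1024 and 319 of all genes did. On the recovered reads with voom, 77 and 2 genes passed, and 0 of the 10. The voom difference was 0.54 (SE 0.17, voom adjusted p = 0.179) for Gfap in FVB and 0.19 (SE 0.08) for Tnc in B6GFP. In batch 1, Gfap was 8.05 and 9.79 RPM in FVB_MD43 and 4.78 to 6.73 in FVB_WT, and in batch 2 these groups overlapped. Line means of MommeD43 and wild type overlapped for all 10 genes in both strains, where 1.05% (FVB) and 1.23% (B6GFP) of all genes did not overlap. The call for 2 of the 10 genes turned on 1 line: without FVB_MD43 replicate 2 (line 46), Hopx (0.81, adjusted p = 0.0258) and Tnc (0.22, adjusted p = 0.0208) passed in FVB, where 976 of all genes then passed against 11.

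The intervals of these differences were narrow for the abundant genes and wide for the scarce ones. In FVB, Nes differed by -0.09 (95% interval -0.21 to 0.04) between MommeD43 and wild type, Vim by -0.01 (-0.14 to 0.13), Fabp7 by -0.01 (-0.18 to 0.15) and Slc1a3 by 0.10 (-0.07 to 0.26). The largest fitted values in FVB were those of Gfap at 0.42 (-0.42 to 1.26), Hopx at 0.40 (-0.11 to 0.92) and Aldh1l1 at 0.35 (-0.10 to 0.79), of which only the interval of Gfap reached 1 log2 unit. In B6GFP, Nes differed by -0.06 (-0.22 to 0.11), Vim by 0.00 (-0.17 to 0.18), Fabp7 by -0.01 (-0.22 to 0.20) and Slc1a3 by -0.13 (-0.34 to 0.08). Aldh1l1 in B6GFP was at 0.42 (-0.16 to 1.01) and Tnc at 0.18 (-0.01 to 0.36, limma adjusted p = 1). The Gfap interval in B6GFP ran from -1.12 to 1.08.

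The difference of the MommeD43 effect between the strains, B6GFP minus FVB, passed for 0 of the 10 genes and for 0% of all genes with limma (458 genes at an unadjusted p below 0.05, and 1 gene passing with voom on the recovered reads). None of the 10 had an unadjusted limma p below 0.05. The fitted differences ran from -0.46 for Hopx to 0.13 for Tnc, and that of Slc1a3 was -0.23 (95% interval -0.50 to 0.04, limma adjusted p = 1).

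Because 5 lines were sequenced in batch 1 and again in batch 2 or 3, the reads of the same line could be set side by side, before the batch adjustment. Gfap went from 6.73 to 0.356 RPM in line 32 (18.9-fold), from 9.79 to 0.0936 in line 46 (105-fold, on 1 read in batch 2), from 3.95 to 0.442 in line 38.5, from 3.71 to 0.27 in line 38.1 and from 1.0 to 0.469 in line 23.7. It was thus lower in the later batch in all 5 lines. Ptprz1 was also lower there in all 5, by 1.83 to 3.1-fold. Tnc went in both directions, from 1490 to 2430 in line 32 and from 1450 to 2580 in line 46 in batch 2, but from 1360 to 861 in line 23.7 and from 1470 to 761 in line 38.5 in batch 3. Hopx was higher in the later batch in all 5 lines, as in line 32 (4.82 to 18.1) and line 46 (5.99 to 15.4). After the authors' adjustment the same line differed between its batches by a median of 1.22 log2 CPM for Gfap and 0.62 for Aldh1l1, and by 0.10 to 0.23 for the other 8 genes. For Nes this median was 0.19, beside a fitted strain difference of 0.67 in wild type, and for Gfap the largest repeat difference, 2.18, exceeded its fitted strain difference of -1.70 in size.

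**Figure D3:**
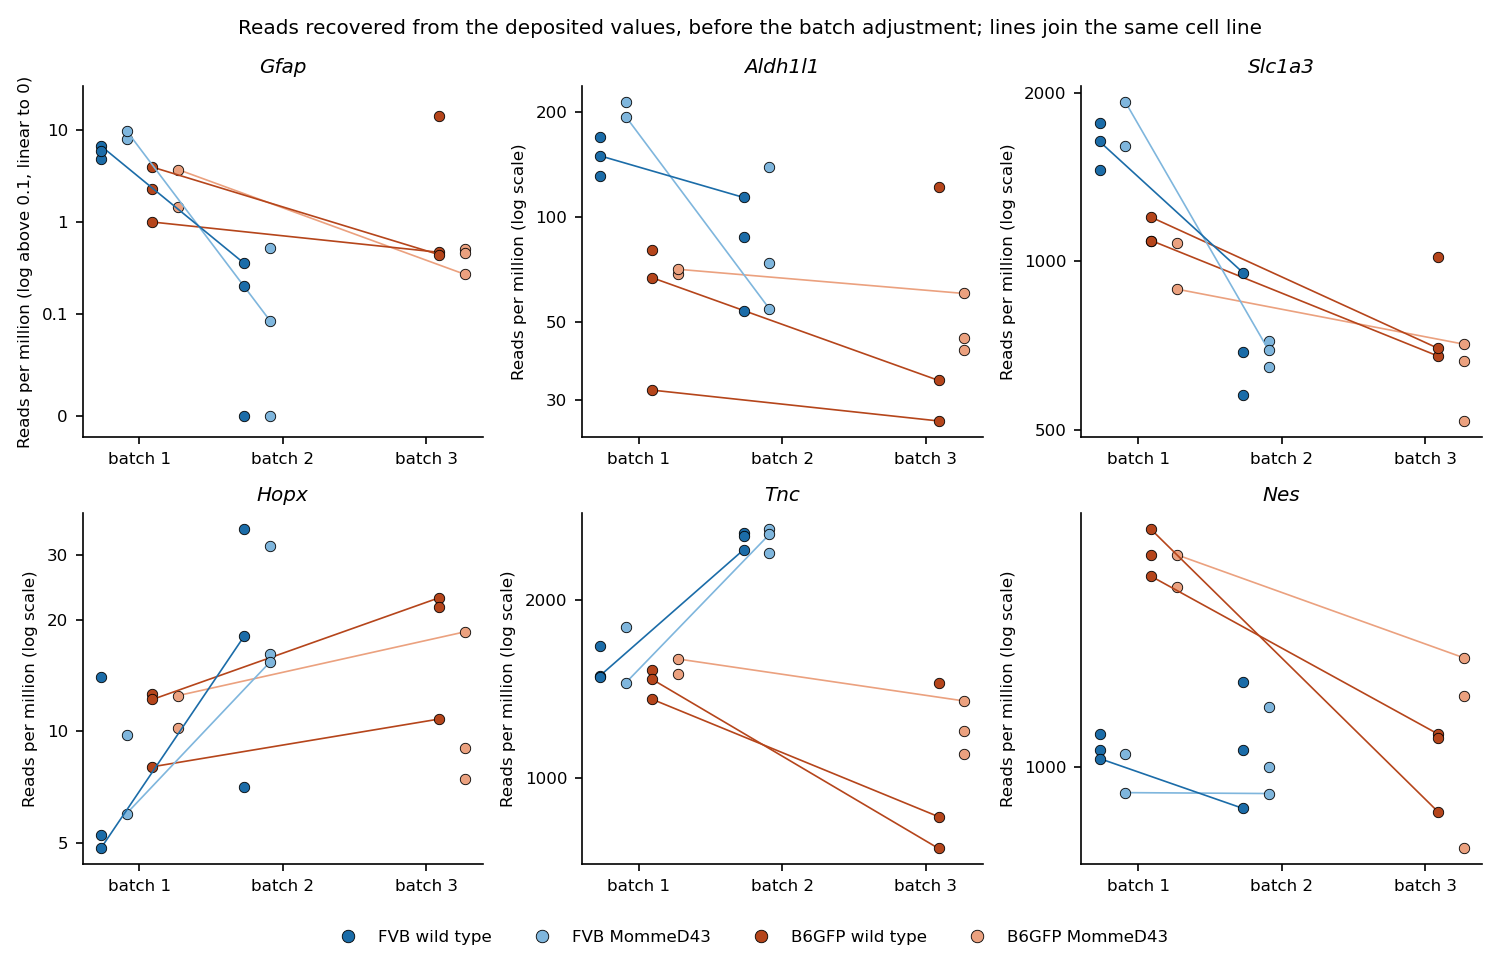
RPM (reads scaled to the library total) before batch adjustment of Gfap, Aldh1l1, Slc1a3, Hopx, Tnc and Nes by batch and group, on log axes (for Gfap linear near 0), with 1 point per library and lines joining the same cell line. In batch 1 the Gfap libraries of FVB (4.78 to 9.79) sit above those of B6GFP (1.0 to 3.95), and in batch 2 the FVB libraries hold at most 0.519.

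The line-to-line spread was measured as the mean absolute deviation of line means from their group mean, each deviation scaled by the square root of n/(n - 1) for the n lines of its group. Between strains, 8 of the 10 genes had a wider spread in the 8 B6GFP lines than in the 9 FVB lines, and 0 passed an adjusted p of 0.05 by the two-sided exact permutation test over 24310 splits, with 20 tests of spread adjusted together. At an unadjusted p below 0.05 stood 2 genes: Gja1, narrower in B6GFP (0.138 against 0.418 log2 CPM, exact permutation p = 0.00432, adjusted p = 0.0864), and Vim, wider in B6GFP (0.257 against 0.085, exact permutation p = 0.0165, adjusted p = 0.165). For Vim, line 49.1 was at 11.92 and the other B6GFP_WT lines were at 11.06 to 11.22. Between genotypes, MommeD43 lines had the wider spread for 1 of the 10 genes, Nes (0.16 against 0.069, exact permutation p = 0.0529, adjusted p = 0.352), and 0 passed. On simulated lines of equal spread this test gave small p more often than its level, so its p-values are on the small side. The 10 genes had a median SD over lines of 0.19 in FVB_WT, 0.20 in FVB_MD43, 0.35 in B6GFP_WT and 0.21 in B6GFP_MD43, beside 0.14, 0.12, 0.20 and 0.20 over the 12857 genes with a mean of at least 0 log2 CPM. Gfap stood at the 99.0, 99.8 and 99.8 percentile of SD in the first 3 of these groups and at 47.0 in B6GFP_MD43, while Hopx was at 99.4, 94.8, 86.5 and 89.8. The Gfap SDs of the FVB groups include batch 2 lines with 0 to 5 reads, and that of B6GFP_WT includes line 49.1 at 2.72, with its other lines at -2.17 to -1.18. Nes in B6GFP_WT was at the 2.1 percentile.

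**Figure D4:**
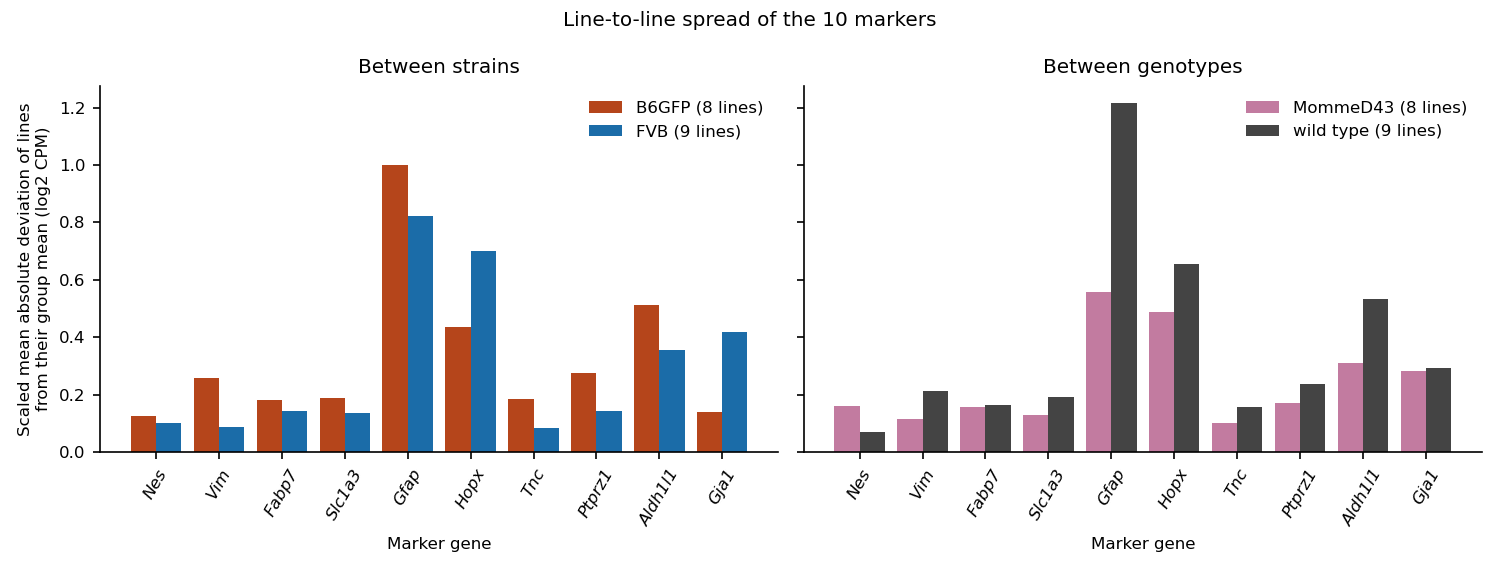
Mean absolute deviation of line means from their group mean, scaled for the number of lines in a group, in log2 CPM, for each of the 10 genes in B6GFP against FVB and in MommeD43 against wild type. Gfap has the widest spread in both strains (1.0 in B6GFP and 0.822 in FVB) and none of the differences passed.

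How the markers moved together over lines was described by Pearson correlations of the 17 line means centred within their groups, with no test, since these points share libraries, batches and the adjustment. Of the 45 pairs, 33 were positive and 12 negative, and 8 of the 9 pairs with Gja1 were negative. Gfap went with Ptprz1 (r = 0.91, Spearman rho = 0.88) and Aldh1l1 (r = 0.88, rho = 0.83). Without line 49.1 these were 0.78 and 0.75, without the 2 lines farthest from the median 0.82 and 0.74, and in the 10 lines of batch 1 they were 0.55 and 0.61. The Gfap values of lines 15, 31, 17b and 42 stand for 0, 2, 5 and 0 reads in batch 2. Of these correlations, those in batch 1 alone leave such lines out. Hopx and Gja1 went in opposite directions (r = -0.84, rho = -0.73), with -0.86 without line 49.1, -0.75 without the 2 farthest lines and -0.97 in batch 1. Vim with Gfap was 0.63 with line 49.1 and 0.04 without it, so that value rested on 1 line.

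**Figure D5:**
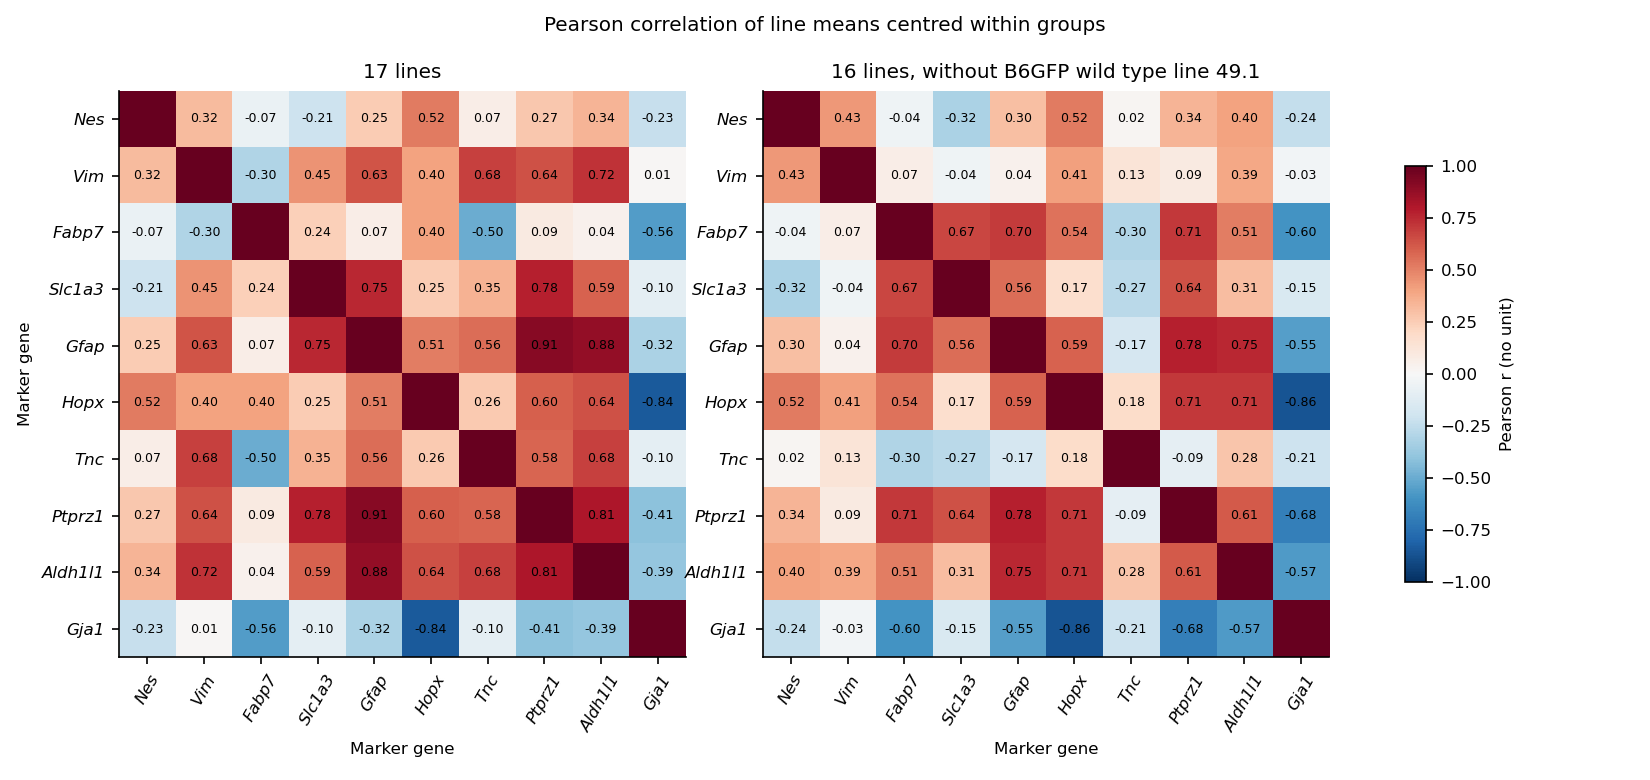
Pearson correlation of line means centred within groups for the 45 pairs of the 10 genes over 17 lines, as a coloured matrix from -1 to 1. Over the 17 lines, Gfap, Ptprz1 and Aldh1l1 form the block of highest values and the Gja1 pairs are mostly negative. Ptprz1 with Aldh1l1 is 0.81 over these lines, 0.61 without line 49.1 and 0.3 in the 10 lines of batch 1. Without line 49.1, Fabp7 with Ptprz1 and Hopx with Ptprz1 are above that pair, each at 0.71. Gfap with Ptprz1 is then 0.78 and Gfap with Aldh1l1 0.75.

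The genes most like each marker, by the same correlation over 17 lines among genes with a mean of at least 0 log2 CPM, were as follows. They were picked as the highest of 12857 genes, so high values come in part from the choice itself. Nes was nearest to Pcdhgb7 (0.93), Ercc3 (0.91) and Clspn (0.91), and Vim to Eif2ak3 (0.96), Fam171a1 (0.96) and Rela (0.95). Gfap was nearest to Myl9 (0.97), Itgb8 (0.97) and Plec (0.96), and Ptprz1 to Ranbp9 (0.98), Phlpp1 (0.97) and Npc1 (0.97). The Gfap values here include batch 2 libraries with 0 to 5 reads. Slc1a3 was nearest to Galc, Gpm6b and Actc1 (each 0.92), Aldh1l1 to Stk32a (0.93), Cybrd1 (0.93) and Slc35b1 (0.92), and Tnc to Bsdc1 (0.94), Ccdc9 (0.93) and Osbpl6 (0.91). With line 49.1 left out, the highest values for Tnc were lower, from 0.71 for Osbpl6 to 0.83 for Bsdc1. Those for Vim were then 0.87 to 0.91 and those for Gfap 0.89 to 0.92, while those for Nes, Hopx and Gja1 were not lower. Fabp7 was nearest to Atp5j (0.89), Hddc3 (0.89) and Cox7b (0.87), Hopx to Scfd2 (0.94), Nrg2 (0.94) and Dscam (0.93), and Gja1 to Zfp217 (0.96), Fzd7 (0.95) and Smurf2 (0.95).

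Other genes of astrocytes were mostly lower in B6GFP lines. Of 28 further astrocyte genes 27 were in the table, and in wild type 16 passed lower in B6GFP and 1 higher, with a median of -0.35 log2, while in MommeD43 16 passed, all lower, with a median of -0.69. Over all genes 23.2% passed lower and 17.9% higher in wild type, and 19.6% and 14.7% in MommeD43. Aldoc, an astrocyte aldolase, was lower by 0.71 (-0.71, SE 0.06, adjusted p = 2.01e-08) in wild type, the bicarbonate transporter Slc4a4 was at -0.98 (adjusted p = 8.09e-07) and the metallothionein Mt3 at -1.10 (adjusted p = 3.25e-06). Aldoc was also lower in MommeD43 (-0.71, adjusted p = 3.32e-07), with Cst3, cystatin C, at -0.84 (adjusted p = 2.93e-06). Without quality weights 5 and 6 of these genes passed in wild type and MommeD43, beside 1259 and 1017 of all genes, and in batch 1 alone 15 and 16, beside 5095 and 3596. None passed between MommeD43 and wild type in either strain with limma, where 6 in FVB and 1 in B6GFP had an unadjusted p below 0.05, and with voom on the recovered reads 2 passed in FVB and 0 in B6GFP.

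Of 16 further radial glia genes, 2 passed higher and 6 lower in wild type and 2 higher and 5 lower in MommeD43, with medians of -0.11 and -0.15. These 8 and 7 of 16 stand beside 41.1% and 34.4% of all genes, as do the counts of the lists that follow. Ttyh1, a chloride channel gene of radial glia, was at -1.53 (adjusted p = 1.31e-07) in wild type, the stem cell factor Sox2 at -0.40 (adjusted p = 9.05e-07) and prominin gene Prom1 at -1.09 (adjusted p = 9.74e-07), and the Notch target Hes5 was at -3.21 (adjusted p = 1.54e-06) in MommeD43. Of the 5 outer radial glia genes in the table (of 7), 1 passed higher (Moxd1, 0.87, adjusted p = 0.0335) and 1 lower (Itgb5, -0.64, adjusted p = 1.48e-05) in wild type, and 1 lower in MommeD43. Among 22 gliogenic factors and signalling genes, 5 passed higher and 8 lower in wild type and 2 higher and 8 lower in MommeD43. The kinase gene Jak2 was higher (0.49, adjusted p = 2.16e-05) and Jak1 lower (-0.29, adjusted p = 8.15e-05), and the BMP target Id3 was lower (-0.63, adjusted p = 0.00138), in wild type. Stat3 itself was at 0.12 (adjusted p = 0.171).

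Of 15 binding partners of Tnc and Ptprz1, 3 passed higher and 5 lower in wild type and 2 higher and 6 lower in MommeD43. The midkine ligand gene Mdk was at -1.28 (adjusted p = 0.000587), the integrin gene Itgav at -0.50 (adjusted p = 6.73e-05) and the proteoglycan gene Ncan at -0.43 (adjusted p = 6.2e-05) in wild type, and pleiotrophin, Ptn, was at 0.22 (adjusted p = 0.00379). Of 14 paralogs of the 10 genes in the table (of 17), 3 passed higher and 5 lower in wild type and 3 higher and 4 lower in MommeD43. The neurofilament genes Nefl (2.51, adjusted p = 8.32e-06) and Nefm (1.74, adjusted p = 0.00107) were higher in B6GFP, and Slc1a2, the second astrocyte glutamate transporter gene, was lower (-1.18, adjusted p = 0.000588). None of the radial glia, outer radial glia, gliogenic, binding partner and paralog lists had a gene passing between MommeD43 and wild type with limma or with voom on the recovered reads. With a replicate block 1 paralog and 1 astrocyte gene passed in FVB, where 137 of all genes did, and without FVB_MD43 replicate 2 there passed 1 radial glia gene, 1 outer radial glia gene, 1 paralog and 2 astrocyte genes, beside 976 of all genes. At an unadjusted p below 0.05 with limma, in FVB, stood 1, 0, 1, 1 and 2 genes of these lists, and in B6GFP 1 gene, a binding partner.

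Markers of other cell types also moved between the strains, and their part in the differences of the 10 genes was not tested. Of 9 oligodendrocyte lineage markers, 2 passed higher and 3 lower in wild type and 2 higher and 4 lower in MommeD43, with the myelin gene Mbp at -4.49 (adjusted p = 3.86e-09) in wild type. The summed level of the 9 genes was 1400 to 1790 CPM in FVB_WT, 1470 to 1740 in FVB_MD43, 1420 to 2210 in B6GFP_WT and 1600 to 2380 in B6GFP_MD43. This sum and the CPM levels that follow are of batch-adjusted values. The adjustment shifts each gene by its own amount, so they do not give the reads a library held. Of 11 neuronal markers, 2 passed higher and 2 lower in wild type and 3 higher and 2 lower in MommeD43. Sums were 813 to 1010 CPM in FVB_WT, 902 to 1050 in FVB_MD43, 986 to 1100 in B6GFP_WT and 1040 to 1500 in B6GFP_MD43. The highest sum was that of replicate 2 of B6GFP_MD43 in batch 3 (line 37.2). Map2, with group means of 9.68 to 9.89 log2 CPM, was the highest of these genes. In line 37.2, Tubb3 was at 6.48 log2 CPM, beside group means of 2.34 to 3.82. Neurod1 was at 3.49 there, beside -1.21 to 0.56, and Neurod6 at 3.03, beside -4.57 to -1.19. The same line had the lowest Fabp7 (10.09), Slc1a3 (9.0) and Ptprz1 (9.6) of all lines and the highest Nes (10.67). A link between these levels was not tested. Endothelial and mesenchymal markers summed to at most 11.8 and 3.66 CPM in any library, with 4 of 4 and 4 of 5 genes in the table, and no endothelial gene passed between strains while 2 mesenchymal genes passed lower in wild type and 1 in MommeD43. The 1 of 5 microglia markers in the table was at 2.92 CPM or less, and the ependymal gene Foxj1, the 1 of 3 in the table, was at 9.25 to 41.3 CPM and passed lower in B6GFP (-1.04, adjusted p = 5.08e-07 in wild type). Intermediate progenitor markers, 2 of 4 in the table, summed to 36.0 to 115 CPM. In these bulk samples fewer cells of a type and less RNA per cell cannot be told apart. Reads were mapped to the C57BL/6J reference, and the effect of that on FVB/NJ reads was not tested.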

How the data were processed

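Poly(A) RNA libraries were made from 100 ng of RNA of primary NSCs. Per the labels and the study's methods, the authors trimmed reads with Trim Galore 0.4.4, mapped them with HISAT2 2.0.5 to GRCm38.p6, and used edgeR and limma 3.40.6 with correction for batch. The deposited values are log2 CPM per gene, already adjusted for batch by the authors, and no column was left unmapped. Columns equal to the mean of their group mates were left out (tolerance 1e-06, on 14922 genes).

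Here whole reads were recovered from the log2 CPM steps (tolerance 0.02 of a read) for levels per batch. The deposited log2 CPM of all genes went into limma 3.58.1 (R 4.3.3) with terms for group and batch, array quality weights, a mean-variance trend and the cell line as a block (consensus correlation 0.0829). Benjamini-Hochberg adjustment ran over all 14922 genes, with calls at 0.05. Tables were handled in Python 3.11.15. Scripts were tested on simulated data. Alternatives were other weights, scaling, filters, log scale, batches, blocks, line means and each line left out, and, chosen after seeing the data, voom on the recovered reads and leaving out the 2 libraries of lowest weight. Named genes were the 10 markers, Smchd1, at most the 3 genes of smallest p per further list and strain comparison, and the 3 most correlated genes per marker, and Stat3 and Ptn were added after their values were seen. The 10 genes, the lists and the tests were chosen with earlier results of these data known. The limma p-values rest on 22 libraries of 17 lines, with the line as a block. They therefore mix spread between lines with spread between repeat libraries of the same line. They do not allow for the authors' earlier batch adjustment. The permutation p-values of spread use line means. The labels describe the lines as independent.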

Additional observations from a re-analysis of the deposited data

Results flagged for a closer look

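Ptprz1 in line 49.1 (B6GFP_WT replicate 4) stood at 10.77 log2 CPM, apart from the other 3 lines of its group at 9.9 to 9.97. Its gap to the nearest line was 0.928 of the range of the group, above Dixon's 95% critical value for 4 lines. Of the 40 groups of 4 or more lines examined over the 10 genes, this was the 1 that did so, and chance alone gives about 1 in 20. The same line had the highest Gfap, Vim and Tnc of all lines and a quality weight of 0.101.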

How the results depend on the processing

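Most differences between the strains kept their direction and call. Of 640 values of the strain differences of the 10 genes under the alternatives, 574 kept both, 39 lost their call, 20 gained one and 7 turned direction. Of 660 values of the MommeD43 differences, 576 kept both, 3 gained a call and 81 turned direction. The alternatives on the recovered reads and without the 2 libraries of lowest weight were chosen after seeing the data. The cause of the changes was not tested.

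The number of the 10 genes passing between strains in wild type and MommeD43 was 2 and 3 without quality weights (1259 and 1017 of all genes), 3 and 3 with voom on the recovered reads without weights (1555 and 1357), and 3 and 3 without the 2 libraries of lowest weight and without weights (2420 and 1826), against 8 and 7 (6131 and 5126). Leaving out each line gave 6 to 8 in both. In FVB, leaving out a line gave 0 to 2 passing between MommeD43 and wild type, 2 without FVB_MD43 replicate 2, and in B6GFP all 24 columns gave 1 (Tnc, 0.19). For spread between strains, centring each library on its median gave 1, and leaving out a line gave 0 to 2, with 1 without FVB_MD43 replicate 1 and 2 without B6GFP_MD43 replicate 2.

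The labels give replicate numbers in all groups, but lines with the same number did not deviate together: the correlations were -0.0674, 0.138, -0.484 and -0.464 in FVB and -0.316, 0.00657, 0.131 and -0.355 in B6GFP, so the numbers were not taken to pair the lines. With a replicate block 9 of the 10 genes passed between strains in wild type and 8 in MommeD43 (6861 and 4870 of all genes), with Tnc gained in wild type (adjusted p = 0.0338) and Fabp7 in MommeD43 (adjusted p = 0.012), and it gave Gja1 in FVB 0.04506, Nes in B6GFP 0.004106 and Tnc between strains in MommeD43 -0.03097.

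MommeD43 differences that turned direction were these. In FVB, Vim was 0.000206 without quality weights, 0.03096 with all 24 columns, 0.006507 with no batch term and 0.01641 with voom, Slc1a3 was -0.03407 on line means, and in batch 2 alone Slc1a3 was -0.1705, Gfap -0.671, Ptprz1 -0.06991 and Aldh1l1 -0.3474. In B6GFP, Nes was 0.00688 without quality weights, 0.006191 with voom without weights and 0.2711 in batch 3 alone. Vim was -0.1307 without quality weights, -0.1331 with voom without weights, -0.03308 with all 24 columns, -0.009854 with centred libraries and -0.002781 with lines that share a number as 1 block. Ptprz1 was 0.002815 with the filter above 1 CPM, 0.01095 on line means, 0.0417 in batch 1 alone, 0.005475 with voom, 0.04275 with voom in batch 1 alone, and 0.0002624 and 0.04402 without the 2 libraries of lowest weight, with and without weights. Gfap was 0.2698 in batch 1 alone, 0.1179 with voom, 0.2443 with voom in batch 1 alone and 0.07 without the 2 libraries. Hopx was 0.08271 and Gja1 -0.0144 in batch 1 alone, and 0.06988 and -0.01285 with voom there. Fabp7 was 0.02906 without the 2 libraries. Tnc between strains in MommeD43 was -0.1077 on line means, -0.009634 with no batch term, -0.06622 in batch 1 alone and -0.06582 with voom there.

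Leaving out each line gave these ranges in B6GFP for MommeD43 against wild type: Aldh1l1 -0.03892 to 0.6716, Fabp7 -0.1227 to 0.03797, Gfap -0.3402 to 0.6573, Gja1 -0.03936 to 0.08033, Hopx -0.1658 to 0.1242, Nes -0.122 to 0.02579, Ptprz1 -0.03129 to 0.03466 and Vim -0.04507 to 0.07633. In FVB they were -0.06805 to 0.02876 for Fabp7, -0.3114 to 0.1345 for Gja1, -0.03413 to 0.1497 for Slc1a3, -0.03119 to 0.2249 for Tnc and -0.03739 to 0.05664 for Vim, and for Tnc between strains in MommeD43 -0.1578 to 0.132. Batches 2 and 3 alone hold 1 strain each and give no strain comparison. Depth limits Gfap, whose batch 2 libraries held 0 to 5 reads.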
